A study of Mus musculus with 10 samples.

Results

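The cytosolic ribosomal protein genes encode the protein parts of the ribosome that translates nuclear-encoded mRNA. They were chosen by symbol: Rpl or Rps with a number and at most 1 letter a, x or l, together with Rplp0, Rplp1, Rplp2 and Rpsa. Pseudogene symbols and the S6 kinases were left out, and each gene was read from its brightest probe set with 1 gene symbol. This gave 59 genes of 19938 with such a probe set. By role they were 31 large-subunit genes, 3 stalk genes, 20 small-subunit genes and 5 paralogs of core genes (Rpl3l, Rpl10l, Rpl39l, Rps4l and Rps27l). Rpl32l, by its symbol a like-copy of Rpl32, was counted with the large subunit. Rps4l fits the symbol rule but is a transcribed pseudogene in RefSeq. A further 16 RefSeq symbols that fit the rule, such as Rpl3, Rpl11, Rpl39 and Rps27, lay only on probe sets shared by several symbols and were not analysed here.

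The study asked whether alcohol around birth leaves a trace in adult brain expression. In each of 2 independent experiments C57BL/6J females had 10% ethanol in their drinking water, or water only in the control groups, through pregnancy from gestational day 0 and on until the pups were 10 days old. Male offspring were killed at postnatal day 70, and total RNA of the whole brain was hybridised to Affymetrix whole-transcript arrays. In experiment 1 each array held a pool of 3 mice, with 2 ethanol and 2 control arrays. In experiment 2 each held a pool of 2 mice, with 3 ethanol and 3 control arrays. The 24 mice are therefore seen as 10 pools, and whether pools shared litters is not given in the sources used here, so each p-value reflects pool-to-pool variation alone.

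A cytosolic ribosome is built from a small 40S subunit, which reads the mRNA, and a large 60S subunit, which joins amino acids and carries a flexible stalk that recruits translation factors. One copy of nearly every protein goes into each particle, and the mRNAs of these proteins are among the most abundant of a cell. Many begin with a C followed by a run of pyrimidines at the 5′ end, the terminal oligopyrimidine tract, through which mTOR signalling and Larp1 control their translation; that control acts on translation, whereas these arrays measured mRNA amounts. In neurons ribosomes also work in dendrites and axons.

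The tract is shown for genes that recur in the results, because it is the sequence feature best known to be shared by the family. RefSeq promoter entries of the GRCm38.p6 assembly were found for 47 of the 59 genes. Each line below runs from 20 bases before the annotated start to 10 bases from the start onwards, read on the gene's strand. Capitals mark a run of at least 7 pyrimidines reaching within 10 bases of the start, the run over the start where there is one and otherwise the longest. For genes with several entries 1 entry is shown.
Rpl38 (chr11:114668560-114668589, + strand): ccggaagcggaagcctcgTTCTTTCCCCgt
Rps6 (chr4:86857358-86857387, - strand): gggttaagcggaagtcgggCCTCTTTTTCg
Rplp2 (chr7:141447631-141447660, + strand): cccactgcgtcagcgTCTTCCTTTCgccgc
Rps15a (chr7:118116138-118116167, - strand): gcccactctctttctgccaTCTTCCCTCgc
Rps21 (chr2:180257359-180257388, + strand): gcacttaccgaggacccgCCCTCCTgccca
Rpl32l (chr10:20208419-20208448, + strand): taataaaataaaatgaccagCTTCTTCCTT
Rpl4 (chr9:64173367-64173396, + strand): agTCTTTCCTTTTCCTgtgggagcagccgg
Rps13 (chr7:116334181-116334210, - strand): cgcgcgagagcaaacgtcggtgagtggcgt
Rps27l (chr9:66946066-66946095, + strand): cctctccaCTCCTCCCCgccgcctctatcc
Rpl10l (chr12:66284392-66284421, - strand): agaaatttggcctccattttgcggctggcg
Rpl3l (chr17:24727806-24727835, + strand): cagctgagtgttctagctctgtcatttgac

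At the annotated start itself, 10 of the 47 genes had a C followed by 4 pyrimidines, or 21.3%, against 3.01% of 27025 genes with a promoter entry. These were Rpl14, Rpl28, Rpl32l, Rpl38, Rplp2, Rps6, Rps10, Rps15a, Rps18 and Rps21. None of the 4 paralogs with an entry had it; Rpl32l, counted with the large subunit here, is by its symbol a like-copy of Rpl32. The looser feature, the capitalised run, was present in 24 of 47 genes (51.1%) against 22.5% of all genes. The motif CCGGAAG, a core recognised by ETS-family factors, stood on either strand of the 300-base promoter in 18 of 47 (38.3%) against 9.93%. AAGATGG, the core bound by Yy1, stood there in 4 of 47 (8.51%) against 7.28%. Annotated starts can differ from those used in brain, so a match or its lack describes these windows alone.

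No ribosomal protein gene differed between ethanol-exposed and control brains past an adjusted p of 0.05 (limma, Benjamini-Hochberg over 21789 probe sets), in experiment 1, in experiment 2, over both, or in the difference between the experiments. The same was true of all probe sets, with 0% called in each of these 4 comparisons. All differences below are ethanol minus control in log2 units of the deposited values. The smallest adjusted p of a ribosomal protein gene was 0.496 in experiment 1, 0.409 in experiment 2, 0.366 over both and 0.665 for the difference between experiments. At an unadjusted p under 0.05, 0 genes were higher and 1 was lower in experiment 1, where 4.02% of all probe sets were higher and 4.93% lower. In experiment 2 these counts were 0 and 2, against 3.78% and 6.19%. Over both experiments they were 1 and 2, against 4.72% and 7.68%. With 59 genes, each of these counts is at or below what the background shares amount to.

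The differences were small. Over both experiments they ran from -0.19 for Rps27l to 0.12 for Rpl10l. The 95% interval lay within a 1.2-fold change in either direction for 51 of the 59 genes over both experiments, for 44 in experiment 2 and for 29 in experiment 1. The median standard error was 0.0560 log2 units over both experiments, 0.0698 in experiment 2 and 0.0855 in experiment 1. In bulk brain tissue, fewer cells of a type and less RNA per cell cannot be told apart.

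**Figure D1:**
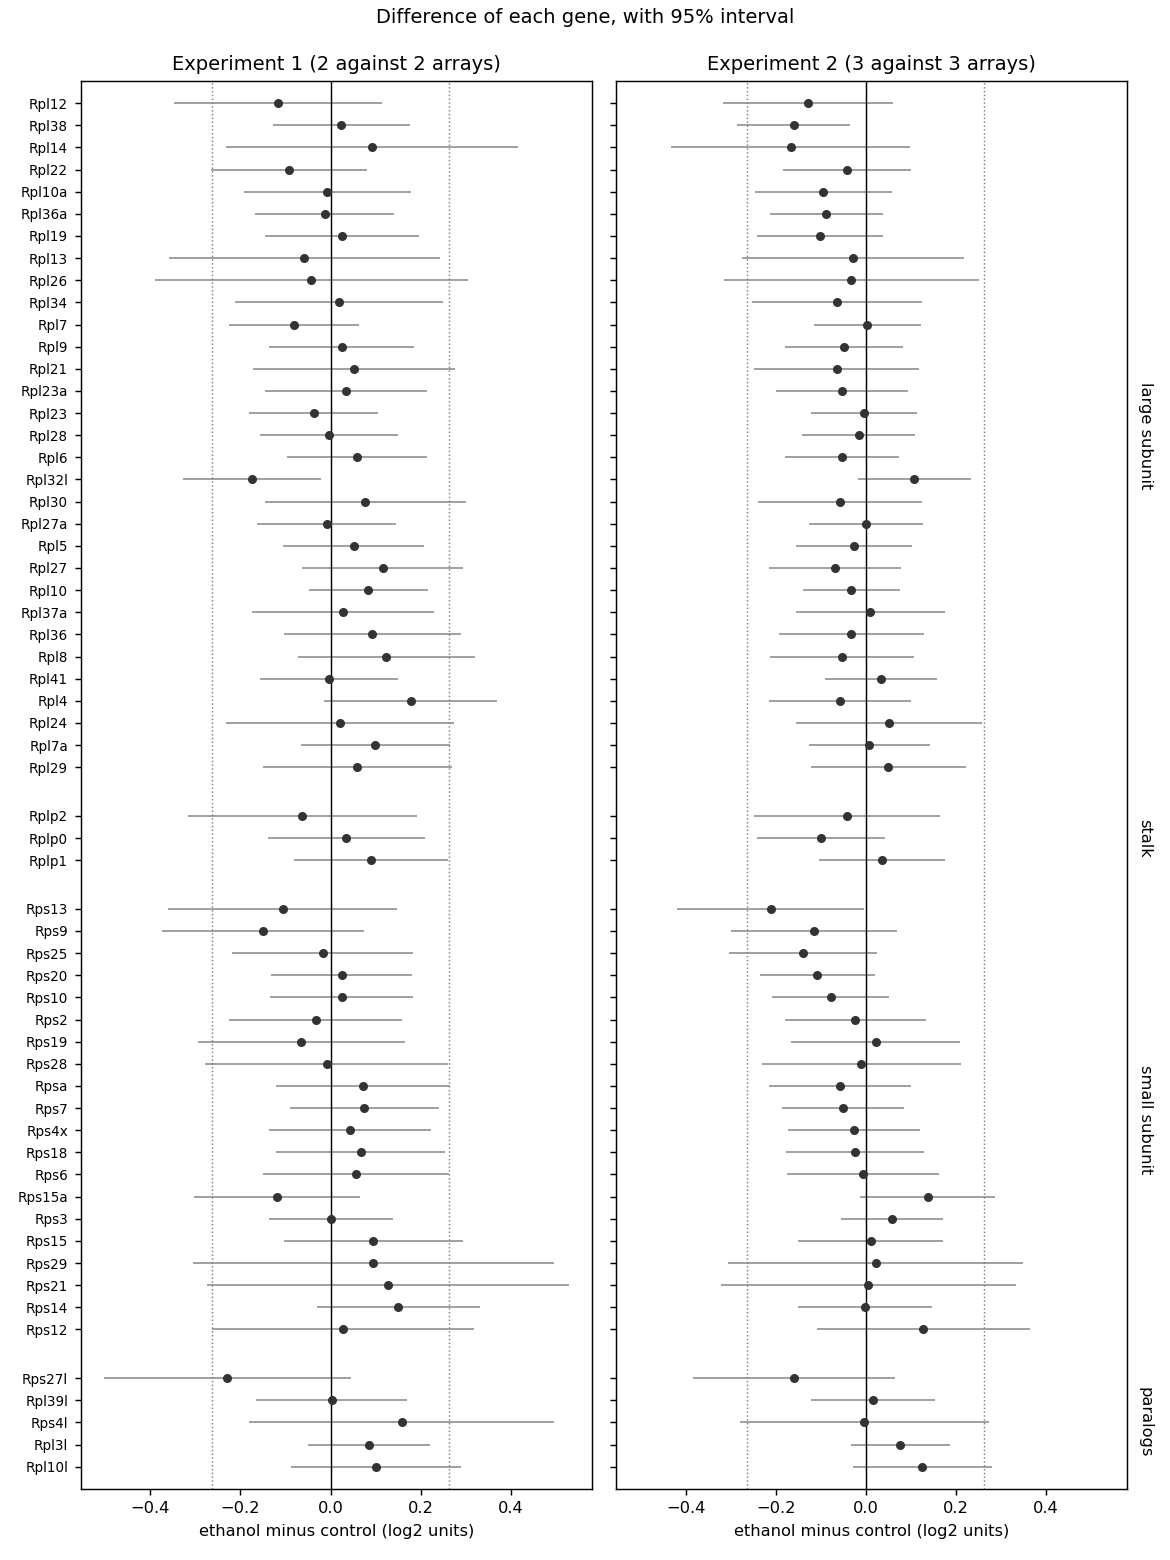
Difference between ethanol and control arrays for each of the 59 genes in experiment 1 (left) and experiment 2 (right), in log2 units, grouped by role; points are estimates, bars are 95% intervals and dotted lines mark a 1.2-fold change. Intervals are wider in experiment 1, where 1 of 59 excludes 0, than in experiment 2, where 2 do.

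More genes of the family lay below 0 in experiment 2 than in experiment 1, with medians smaller than the spread between arrays given below. In experiment 1, 21 of 59 genes lay below 0 and the median was 0.03; in experiment 2, 40 lay below 0 and the median was -0.03. Over both experiments 33 lay below 0 with a median of -0.00. Of all probe sets, 51.8% lay below 0 in experiment 1, 54.9% in experiment 2 and 54.4% over both. Among the brightest 25% of probe sets, to which 43 of the 59 genes belong, the shares were 67.2%, 73.2% and 77.5%, with a median of -0.04 in each comparison. Of those 43 genes, 12 lay below 0 in experiment 1, 30 in experiment 2 and 22 over both. The brightest 25% is not matched to them in level, because many of them lie in the brightest of 20 bins of level. The median of all probe sets in that bin was 0.01 in experiment 1, -0.03 in experiment 2 and -0.02 over both. The count over both experiments depended on the scaling of the arrays. It was 25 of 59 after quantile normalization, where 58.2% of the brightest probe sets lay below 0, and 44 of 59 after centring on array medians, where 90.9% did.

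**Figure D2:**
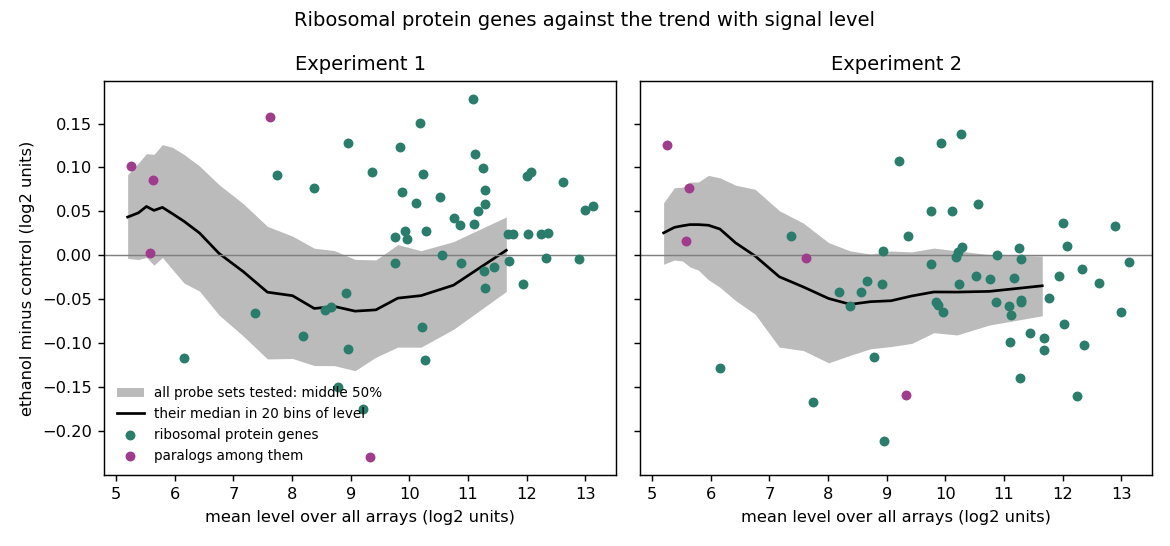
Ethanol minus control in log2 units against the mean level over all arrays, for experiment 1 (left) and experiment 2 (right); points are the 59 genes, the line and band are the median and the middle 50% of all probe sets in 20 bins of level. Below 0 lie 21 genes in experiment 1 and 40 in experiment 2.

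The array-to-array spread of the family was as large as these medians. Each gene's value was expressed as its difference from the control mean of its experiment, and the median over the 59 genes was taken for each array. In experiment 1 it was 0.03 on control array 1, -0.03 on control array 2, -0.03 on ethanol array 1 and 0.08 on ethanol array 2. In experiment 2 it was 0.03, 0.05 and -0.07 on the control arrays and -0.08, 0.02 and -0.05 on the ethanol arrays. The groups overlapped in both experiments: the lowest array of experiment 2 was an ethanol array, and the next lowest was a control array on which 9 of 59 genes lay above the control mean. The standard deviation of this median between arrays of a group was 0.0595 log2 units. Ethanol array 2 of experiment 1 had 46 of 59 genes above the control mean and ethanol array 1 had 20. Without ethanol array 2 the count of genes below 0 in experiment 1 was 39, without ethanol array 1 it was 13, and without control array 2 it was 32. In experiment 2 the count was 31 and the median -0.00 without control array 2, which left 24 genes below 0 over both experiments. It was 49 without ethanol array 2 and 49 without control array 3.

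**Figure D3:**
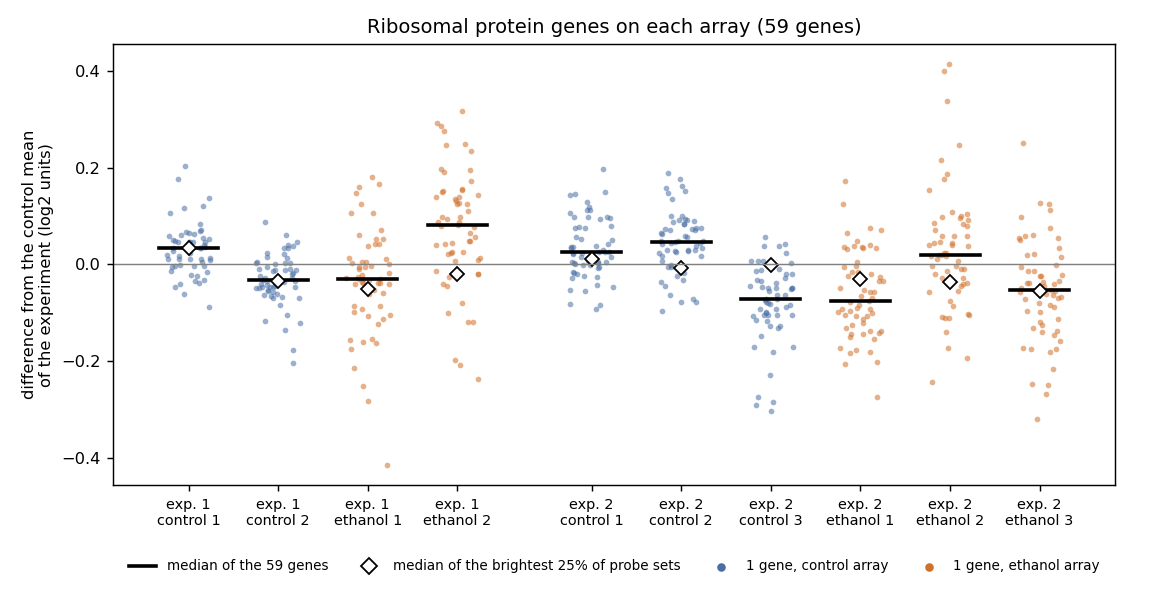
Each point is 1 of the 59 genes on 1 array, as its log2 difference from the control mean of that experiment; bars are the median of the 59 genes and diamonds the median of the brightest 25% of probe sets. In experiment 2 the bars run from -0.08 on an ethanol array to 0.05 on a control array, and control array 3 lies at -0.07.

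Markers of other tissue parts also moved between arrays. Neuronal markers read between 10.96 and 13.4 log2 units on all arrays. The mean level of 5 of 5 anterior pituitary markers (Gh, Prl, Cga, Pomc, Lhb) was 5.72 to 5.90 on the control arrays and 7.87 to 8.95 on the ethanol arrays of experiment 1. In experiment 2 it was 6.39 to 6.97 on control arrays and 6.51 to 9.82 on ethanol arrays. The hormone genes Gh, Prl and Cga stood on average 4.95 and 3.29 above the control mean on ethanol arrays 1 and 2 of experiment 1, and 4.75 above it on ethanol array 2 of experiment 2. On ethanol arrays 1 and 3 of experiment 2 they lay at -0.20 and -0.16. The ribosomal protein median was -0.03 and 0.08 on the former pair, 0.02 on the third such array, and -0.08 and -0.05 on those without the hormone signal. On the control arrays of experiment 1 the hormone genes lay at -0.13 and 0.13, beside ribosomal protein medians of 0.03 and -0.03. On those of experiment 2 they lay at -0.24, -0.33 and 0.57, beside medians of 0.03, 0.05 and -0.07. The mean of 4 of 4 cerebellar markers was 10.97 to 11.01 on control arrays and 10.47 to 10.79 on ethanol arrays in experiment 1. In experiment 2 it was 10.84 to 10.92 on control arrays and 10.56 to 10.83 on ethanol arrays. For 4 of 4 choroid plexus markers it was 9.86 to 9.90 against 9.72 to 9.76 in experiment 1 and 9.94 to 10.0 against 9.53 to 9.77 in experiment 2. The mean of 3 of 3 olfactory mucosa markers (Omp, Cnga2, Stoml3) was 6.16 to 6.18 on control and 5.96 to 6.38 on ethanol arrays in experiment 1, and 5.77 to 7.16 against 5.81 to 6.12 in experiment 2. Its highest value was on control array 2 of experiment 2, where Stoml3 read 8.87, and that array also had the highest ribosomal protein median of experiment 2. The part of these differences in the ribosomal protein values was not tested.

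Among the 31 large-subunit genes, 12 lay below 0 in experiment 1 and 23 in experiment 2, with medians of 0.02 and -0.04. Rpl38, known in mice for its part in the translation of Hox mRNAs, had the smallest p of the family in experiment 2. Its levels there were 12.34, 12.37 and 12.28 on control arrays and 12.13, 12.23 and 12.16 on ethanol arrays. Every ethanol array lay below every control array, a difference of -0.16 ± 0.06 (SE; n = 3 against 3; limma adjusted p = 0.409). In experiment 1 the controls read 12.25 and 12.23 and the ethanol arrays 12.19 and 12.34. There the groups overlapped, with a difference of 0.02 ± 0.07 (SE; n = 2 against 2). The change between the experiments was -0.18 ± 0.09 (SE; limma adjusted p = 0.778). All 4 probe sets of Rpl38 gave nearly the same value over both experiments, -0.10 to -0.09.

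Rpl12, at the base of the stalk, was the large-subunit gene with the lowest difference over both experiments, at -0.12 ± 0.06 (SE; adjusted p = 0.448). Its controls read 6.36 and 6.08 in experiment 1 and 6.37, 6.13 and 6.18 in experiment 2. The ethanol arrays read 6.11 and 6.10, then 6.19, 6.12 and 5.98. All 5 ethanol arrays lay below the control mean, but the groups overlapped in each experiment. Rpl19 differed by -0.10 ± 0.06 (SE) in experiment 2 and by 0.03 ± 0.08 in experiment 1. Rpl7 differed by -0.08 ± 0.07 in experiment 1 and by 0.00 ± 0.05 in experiment 2.

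Rpl4, which lines the exit tunnel of the nascent chain, had the highest value in experiment 1. Its controls read 11.00 and 10.98 and its ethanol arrays 11.03 and 11.31. Both ethanol arrays lay above both controls, and ethanol array 2 alone stood well clear of them. The difference was 0.18 ± 0.09 (SE; limma adjusted p = 0.588), and without ethanol array 1 it was 0.32. In experiment 2 controls of 11.11, 11.18 and 11.03 stood against ethanol values of 11.00, 11.08 and 11.07, which overlap, with a difference of -0.06 ± 0.07. Rpl27 differed by 0.12 ± 0.08 in experiment 1, where its groups overlapped and the value without ethanol array 2 was -0.00, and by -0.07 ± 0.07 in experiment 2. Rpl10, a late-joining protein at the peptidyl transferase centre, differed by 0.08 ± 0.06 in experiment 1 and -0.03 ± 0.05 in experiment 2. After quantile normalization the former was 0.02.

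Rpl32l, whose symbol marks it as a like-copy of Rpl32, was the large-subunit entry that differed most between the experiments. In experiment 1 its controls read 9.25 and 9.35 and its ethanol arrays 9.15 and 9.10. Both ethanol arrays were below both controls, by -0.17 ± 0.07 (SE; limma adjusted p = 0.496). In experiment 2 the controls read 9.22, 9.10 and 9.17 and the ethanol arrays 9.21, 9.34 and 9.26. These groups overlapped by 1 array, with a difference of 0.11 ± 0.06 (SE; adjusted p = 0.554). The change between the experiments, 0.28 ± 0.09 (SE), had a limma adjusted p of 0.665. Rpl32 itself lay only on probe sets shared by several symbols, so the pair cannot be compared.

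Rpl5, which carries the 5S RNA into the large subunit and binds Mdm2 when assembly fails, differed by 0.00 ± 0.05 (SE) over both experiments, with a 95% interval of -0.09 to 0.10. Rpl23, another Mdm2 binder, differed by -0.02 ± 0.04 (-0.10 to 0.07). Rpl41, the smallest ribosomal protein, differed by 0.02 ± 0.04 (-0.07 to 0.11). For each of these the interval lay within a 1.2-fold change.

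The stalk consists of Rplp0, the scaffold bound to the ribosomal RNA, and the acidic proteins Rplp1 and Rplp2, which contact the elongation factors. Rplp0 differed by 0.04 ± 0.08 (SE) in experiment 1 and -0.10 ± 0.06 in experiment 2. Rplp1 differed by 0.09 ± 0.08 and 0.04 ± 0.06, and its ethanol values lay above the control mean on 4 of 5 arrays. The other Rplp1 probe set gave -0.09 in experiment 2 and -0.02 over both. Rplp2 differed by -0.06 ± 0.12 and -0.04 ± 0.09. None of the stalk genes had an unadjusted p under 0.05 in either experiment.

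Among the 20 small-subunit genes, 7 lay below 0 in experiment 1 and 13 in experiment 2, with medians of 0.03 and -0.02. Rps13 was the lowest in experiment 2. Its controls there read 9.10, 9.20 and 8.89 and its ethanol arrays 8.86, 8.96 and 8.75. The third control fell among the ethanol arrays, and the difference was -0.21 ± 0.09 (SE; limma adjusted p = 0.494). In experiment 1 the controls read 9.07 and 8.95 and the ethanol arrays 8.76 and 9.05, which overlap, with a difference of -0.11 ± 0.12. Over both experiments the difference was -0.17 ± 0.07 (SE; limma adjusted p = 0.377), and the 3 probe sets of Rps13 ran from -0.17 to -0.11.

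Rps25, which certain viral and cellular mRNAs need for initiation at internal sites, lay lower on every ethanol array than on every control array of experiment 2. The controls read 11.38, 11.41 and 11.24 and the ethanol arrays 11.16, 11.23 and 11.21. The gap between the groups was narrow beside the spread of the controls, and the difference was -0.14 ± 0.07 (SE; limma adjusted p = 0.558). In experiment 1 it was -0.02 ± 0.09. All 6 probe sets of Rps25 lay below 0 over both experiments. Rps20 gave controls of 11.73, 11.79 and 11.68 against ethanol values of 11.63, 11.60 and 11.66 in experiment 2. Its groups did not overlap either, with a difference of -0.11 ± 0.06 (SE; adjusted p = 0.562), against 0.02 ± 0.07 in experiment 1.

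Groups that do not overlap were no more common in the family than elsewhere. In experiment 2 every ethanol array lay below every control array for 5 of 59 genes (Rpl6, Rpl36a, Rpl38, Rps20 and Rps25), against 11.6% of all probe sets. Every ethanol array lay above for 3 (Rpl3l, Rpl10l and Rps3), against 7.62%. Only Rpl3l was separated the same way in both experiments, against 4.29% of all probe sets.

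Rps15a was opposite in the experiments. In experiment 1 its controls read 10.36 and 10.27 and its ethanol arrays 10.29 and 10.11. The groups overlapped, with a difference of -0.12 ± 0.08 (SE; limma adjusted p = 0.709). Without ethanol array 2 it was -0.03 and without ethanol array 1 -0.21. In experiment 2 the controls read 10.19, 10.15 and 10.23 and the ethanol arrays 10.23, 10.44 and 10.32. Here 2 of 3 ethanol arrays stood above all controls, with a difference of 0.14 ± 0.07 (SE; limma adjusted p = 0.531). The change between the experiments was 0.26 ± 0.11 (SE; limma adjusted p = 0.745).

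Of the 59 genes, 25 lay above 0 in experiment 1 and below 0 in experiment 2, 6 the other way, against 42.5% of all probe sets with opposite signs. A further 13 lay above 0 in both and 15 below 0 in both. For 5 genes all ethanol arrays of the experiments fell on opposite sides of their control means, against 10.6% of all probe sets. These were Rpl4, Rpl10 and Rpl34, with ethanol above in experiment 1, and Rpl32l and Rps15a, with ethanol below in it. In the test of the difference itself, 2 genes were higher in experiment 2 at an unadjusted p under 0.05 (Rpl32l and Rps15a) and 0 were lower, against 3.33% and 3.24% of all probe sets. The median difference between the experiments was -0.07 over the 59 genes and -0.01 over all probe sets.

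**Figure D4:**
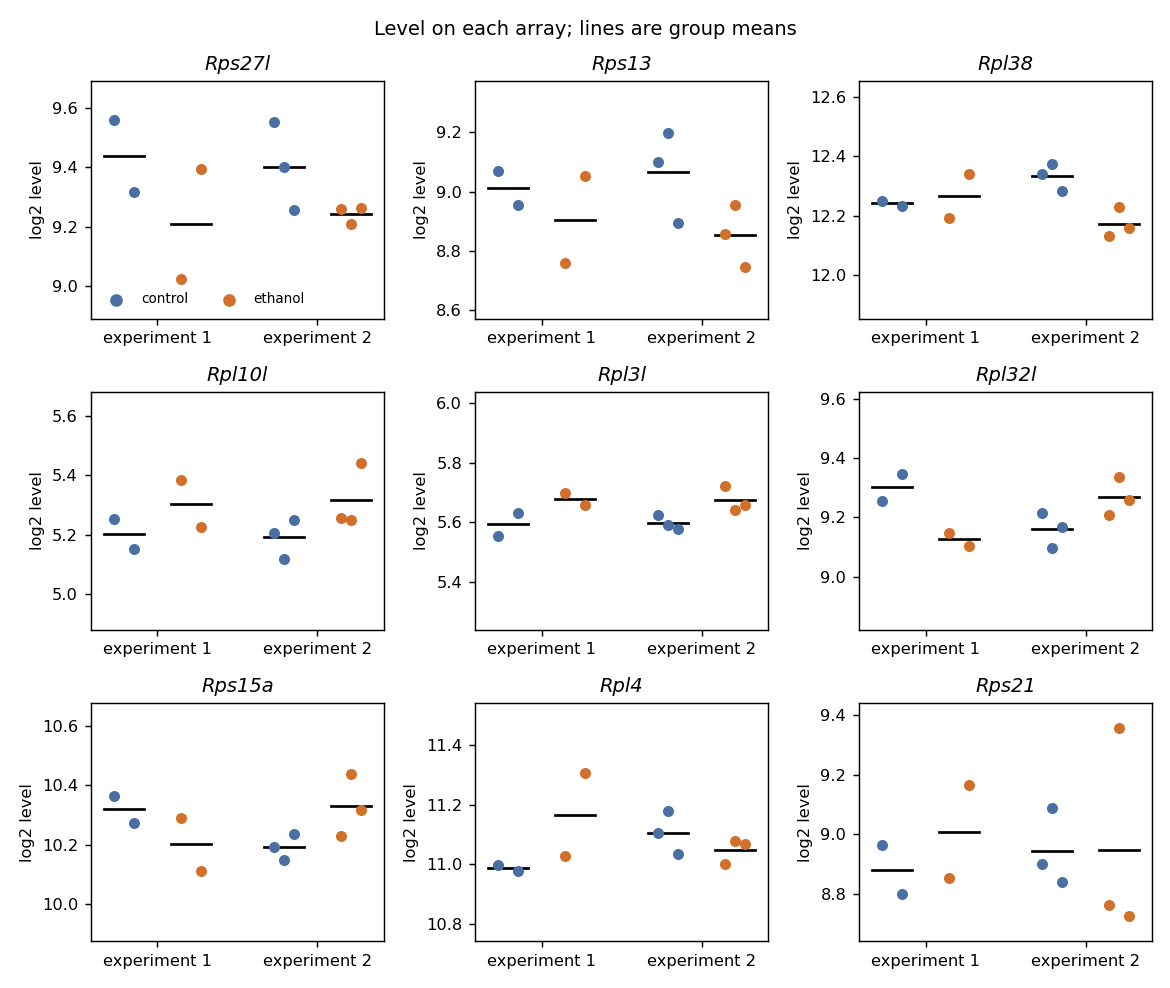
Log2 level on each array for 9 of the genes; points are arrays (blue, control; orange, ethanol), lines are group means, and every panel spans the same range of log2 units. Rpl38 is separated in experiment 2 alone, Rpl3l in both experiments, and Rps21 varies most within a group.

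Rps6, Rps3, Rps19 and Rpsa differed by at most 0.04 in either direction over both experiments. Rps6, the protein that S6 kinase phosphorylates downstream of mTOR, had controls of 13.21 and 13.00 and ethanol values of 13.08 and 13.24 in experiment 1. Its controls were 13.06, 13.18 and 13.18 and its ethanol values 13.08, 13.06 and 13.25 in experiment 2. The groups overlapped in both experiments, and the difference over both was 0.02 ± 0.06 (SE; 95% interval -0.11 to 0.14). Rps3, at the mRNA entry, differed by 0.04 ± 0.04 (-0.05 to 0.12), and Rps19, which is mutated in Diamond-Blackfan anaemia, by -0.01 ± 0.06 (-0.15 to 0.13). Rpsa, first described as a laminin receptor precursor, differed by -0.00 ± 0.06 (-0.13 to 0.12).

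Rps14 was higher on both ethanol arrays of experiment 1, at 10.25 and 10.26 against controls of 10.07 and 10.14. The difference was 0.15 ± 0.08 (SE; limma adjusted p = 0.627), and in experiment 2 it was -0.00 ± 0.07. The other Rps14 probe set gave -0.04 in experiment 1. Rps12 differed by 0.03 ± 0.13 and 0.13 ± 0.11. Without ethanol array 2 of experiment 2 the latter was -0.01. Rps9, known for its part in decoding accuracy, differed by -0.15 ± 0.10 and -0.12 ± 0.08, with all 5 ethanol arrays below the control mean, but its other probe set gave 0.08 over both experiments. Without ethanol array 1 the value in experiment 1 was -0.02.

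The paralogs are copies with restricted expression or roles beside the core protein. Rps27l, a relative of Rps27 that p53 induces, had the lowest difference of the family. In experiment 1 its controls read 9.56 and 9.32 and its ethanol arrays 9.02 and 9.39. In experiment 2 the controls read 9.55, 9.40 and 9.26 and the ethanol arrays 9.26, 9.21 and 9.26. All 5 ethanol arrays lay below the control mean, and the groups overlapped in both experiments. The difference over both was -0.19 ± 0.08 (SE; 95% interval -0.35 to -0.02; limma adjusted p = 0.366), and the values within experiments were -0.23 ± 0.12 and -0.16 ± 0.10. Without ethanol array 1 the value in experiment 1 was -0.04.

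Rpl10l, a testis paralog of X-linked Rpl10, read 5.25 and 5.15 on controls and 5.38 and 5.22 on ethanol arrays of experiment 1. In experiment 2 it read 5.21, 5.12 and 5.25 against 5.26, 5.25 and 5.44. All 5 ethanol arrays lay above the control mean, and the groups were apart in experiment 2 only. The difference over both was 0.12 ± 0.05 (SE; limma adjusted p = 0.402). Rpl3l, the striated-muscle paralog of Rpl3, read 5.55 and 5.63 on controls against 5.70 and 5.66 in experiment 1. In experiment 2 it read 5.62, 5.59 and 5.58 against 5.72, 5.64 and 5.66. No array of 1 group overlapped the other in either experiment, and the difference over both was 0.08 ± 0.04 (SE; limma adjusted p = 0.412). After quantile normalization it was 0.04. Both probe sets lie in the dim part of the table, below its 25th percentile. Over both experiments the middle 50% of probe sets in the level bin of Rpl3l ran from 0.01 to 0.08 with a median of 0.04, and in that of Rpl10l from 0.00 to 0.06 with a median of 0.03.

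Rpl39l, a testis paralog of Rpl39, differed by 0.01 ± 0.05 over both experiments. Rps4l, a transcribed pseudogene in RefSeq, differed by 0.06 ± 0.10, with 2 probe sets that ran from -0.07 to 0.06. Its partner Rps4x, on the X chromosome, differed by 0.00 ± 0.05. Of the 5 paralogs, 1 lay below 0 over both experiments.

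The family differed widely in how much its genes varied between arrays of a group. The median within-group standard deviation was 0.0901 log2 units, against 0.0809 over all probe sets and 0.0662 over the brightest 25%. Rps21 varied most, at 0.241. On its arrays of experiment 2 the controls read 8.90, 9.09 and 8.84 and the ethanol arrays 8.76, 9.36 and 8.73. Rps29 had controls of 9.45, 9.53 and 9.08 and ethanol values of 9.26, 9.69 and 9.18, and Rpl26 had 9.13, 9.02 and 8.64 against 8.87, 9.15 and 8.68. For all 3 genes ethanol array 2 was the highest of the 6 arrays. Rpl10, Rpl3l and Rps3 varied least, from 0.0330 for Rpl10 to 0.0414 for Rps3. The 10 genes with the pyrimidine start had medians of 0.02 in experiment 1 and -0.02 in experiment 2, and the 37 others with a promoter entry 0.02 and -0.03; no test was made.

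Many of these genes were read by several probe sets, 215 in all. There were 20 genes with 1 probe set and 39 with more, up to 14 for Rps12. The probe sets of a gene are not independent: 19 of them, in 5 genes, held the same values on all arrays as another of the gene, 8 of these for Rps12. RefSeq names 237 pseudogene loci for 42 of the 59 genes, so signals of a gene and of its near copies cannot be separated with certainty. Over both experiments the probe sets of 18 genes shared a sign and those of 21 did not. The largest gaps were those of Rps9 (-0.13 and 0.08), Rpl13 (-0.04 to 0.10 over 9 probe sets) and Rps28 (-0.06 to 0.08 over 7). The median gap was 0.0464 log2 units.

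**Figure D5:**
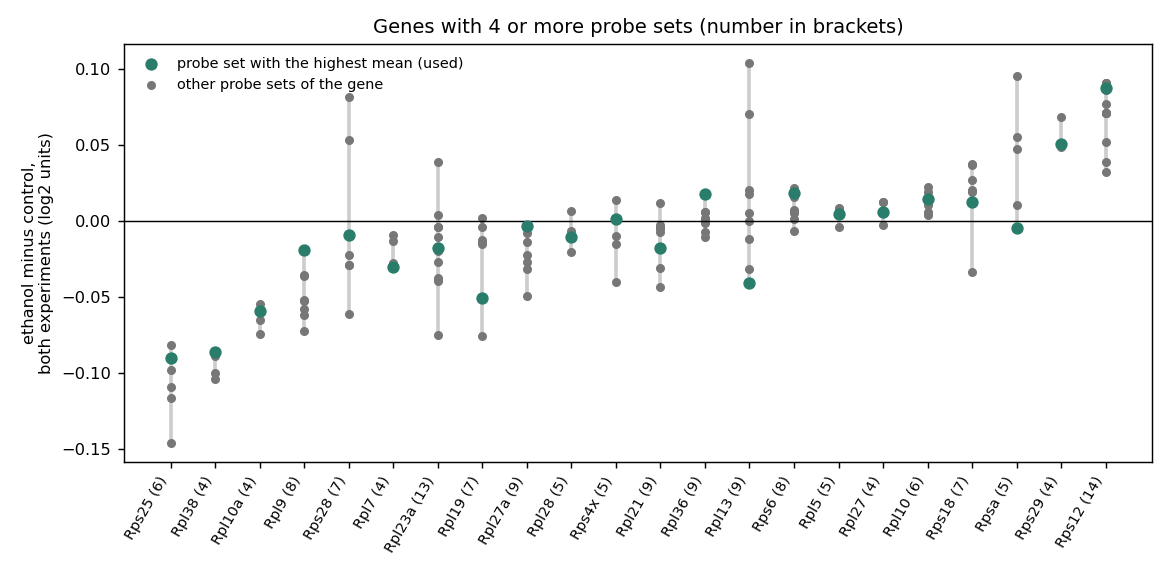
Ethanol minus control over both experiments, in log2 units, for each probe set of the 22 genes with at least 4 probe sets; large points are the probe sets used, small points the others, and grey lines join those of a gene. All 6 probe sets of Rps25 and all 4 of Rpl38 lie below 0, and all 14 of Rps12 above 0.

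Other genes of translation were described by fixed lists, with 0 genes past adjusted p 0.05 in any of them. Of 31 initiation factors measured, 27 lay below 0 over both experiments, with a median of -0.06, and 6 had an unadjusted p under 0.05, all lower, where 7.68% of all probe sets and 10.5% of the brightest 25% were lower at that p. Eif6, which keeps the 60S subunit from joining too early, differed by -0.15 ± 0.04 (SE; limma adjusted p = 0.306). Eif2b2, a subunit of the exchange factor of eIF2, differed by -0.12 ± 0.04, and Eif2s3x, a subunit of eIF2, by -0.13 ± 0.05. Of 26 ribosome assembly genes, 21 lay below 0, with a median of -0.05, and 5 had an unadjusted p under 0.05, all lower, against the same 7.68% and 10.5%. Dkc1, which encodes the pseudouridine synthase dyskerin, differed by -0.27 ± 0.05 (limma adjusted p = 0.215), Bysl by -0.17 ± 0.05 and Npm1 by -0.19 ± 0.06. The background share below 0 is 77.5% in the brightest 25% of probe sets and 54.4% in all.

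Of 9 genes listed as elongation and termination factors, 7 lay below 0, with a median of -0.02. Etf1, the stop codon reader, differed by -0.12 ± 0.04 (SE) and the release factor Gspt1 by -0.06 ± 0.04. Eef1e1, in the list by its symbol, differed by -0.07 ± 0.04. Of 11 genes of the mTOR branch that acts on ribosomal protein mRNA and S6, 6 lay below 0 with a median of -0.04; the median was -0.09 in experiment 1 and 0.02 in experiment 2. Among them Larp4 differed by -0.09 ± 0.04, the mTOR activator Rheb by -0.09 ± 0.04 and the S6 kinase Rps6kb2 by -0.12 ± 0.06. Eif4ebp1 and Eif4ebp2, repressors of cap-dependent initiation named after their values were seen, differed by 0.11 ± 0.08 and 0.11 ± 0.09. Of 7 other mRNAs with a terminal oligopyrimidine tract, 3 lay below 0 with a median of 0.00, and Vim, vimentin of glia, differed by -0.15 ± 0.06, Ybx1 by -0.07 ± 0.06 and Naca by 0.05 ± 0.05. Fau and Rpl7l1, ribosomal protein genes or near copies outside the naming rule, differed by 0.01 ± 0.05 and -0.07 ± 0.04. The ribosomal proteins themselves, at 33 of 59 below 0 and a median of -0.00, are given beside these lists without a test of the difference.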

How the data were processed

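Whole-brain RNA was measured on 10 arrays. The deposited values are log2 levels of 35556 probe sets. The submitters' processing notes name Partek 6.6. How background was corrected, arrays were normalized or batches were adjusted is not given in the sources used here. For every probe set the deposited means of the experiments agreed within 5.83e-05, so levels were not compared between experiments. Sources do not name a build for the arrays; promoter windows came from RefSeq (GRCm38.p6).

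Arrays were grouped by their titles. The platform annotation gave 21789 probe sets 1 symbol; 1621 with several and 12146 unlisted ones were not tested. limma 3.58.1 (R 4.3.3; lmFit, eBayes, Benjamini-Hochberg at 0.05) was fitted to all of them, with 4 group means for the within-experiment values and their difference (6 residual degrees of freedom, prior 5.45), and with experiment and treatment terms over both (7, prior 5.57). Array number limits precision. The procedure was tested on simulated data.

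The members and lists were chosen with earlier results of these data known. Named were, per comparison, the 5 members with the smallest p in each direction, 4 for the difference between experiments, members with roles of their own, those with the largest probe-set gaps, the 3 most and the 3 least variable, and 3 genes per translation list. Rpl6, Rpl34 and Rpl36a were named after their values were seen. Arrays were not treated as paired by replicate number in the main fit. Same-number deviations correlated at -0.05 in experiment 1 and at 0.01, -0.15 and 0.23 in experiment 2. In experiment 1 this cannot show pairing, because deviations of 2 arrays per group mirror each other. In experiment 2 arrays of different number correlated at -0.23 to 0.21, so whether numbers mark pairs was not decided. Figures used matplotlib 3.10.9.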

Additional observations from a re-analysis of the deposited data

Results flagged for a closer look

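For 5 of the 59 genes, every ethanol array of experiment 1 fell on one side of the control mean and every ethanol array of experiment 2 on the other. The value given is the ethanol difference of experiment 2 minus that of experiment 1, in log2 units. It was 0.28 for Rpl32l (limma adjusted p = 0.665) and 0.26 for Rps15a (limma adjusted p = 0.745), with ethanol below control in experiment 1 for both. It was -0.23 for Rpl4 (limma adjusted p = 0.775), -0.12 for Rpl10 (limma adjusted p = 0.848) and -0.082 for Rpl34 (limma adjusted p = 0.932), with ethanol above control in experiment 1 for all 3. None passed an adjusted p of 0.05, and 10.6% of all probe sets showed such opposite sides.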

How the results depend on the processing

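No ribosomal protein gene passed adjusted p 0.05 in limma under any alternative run, and the smallest adjusted p of one was 0.105, for Rpl4 without ethanol array 1 of experiment 1. Over all probe sets, experiment 2 gave 3 calls with a trended, robust prior and 2 with array weights, and experiment 1 gave 1 when fitted alone; the cause was not tested. With each array left out in turn the calls ranged from 0 to 235 in experiment 1, 0 to 1 in experiment 2, 0 to 1 over both, and 0 to 94 for the difference between experiments. The highest counts, 235 and 94, came without ethanol array 1 of experiment 1, where the lone array is assumed to vary like the other groups. The genes below 0 in experiment 1 then ranged from 13 to 39, and the median difference between the experiments from -0.135 to -0.0142. The median over both experiments ranged from -0.03 with median centring to 0.01 with quantile normalization. Centring put 51 of 59 genes below 0 in experiment 2. Of 631 values of named genes compared with an alternative, 2 had the other sign. These were Rpl27 in experiment 1 (-0.00) and Rps12 in experiment 2 (-0.01), each without ethanol array 2 of its experiment. Some alternatives cannot change a sign. A different prior, a filter on dim probe sets or an array left out of the other experiment leaves a within-experiment difference as it was. The count of 2 is therefore no measure of how stable the signs are. The 631 also do not cover every value given for a named gene. Without ethanol array 2 the experiment 1 differences of Rpl38 and Rps20, 0.02 for both, were -0.05 and -0.03. That of Rps12, 0.03, was then -0.10. With the replicate block the calls were 0 in all 4 comparisons, and the smallest adjusted p of a ribosomal protein gene over both experiments was 0.362; the block changed no call. Filters on dim probe sets kept 56 genes (25th percentile) and 54 (median). The number of arrays limits all of these values.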
